A study of Mus musculus with 32 samples.

Results

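The genes described here encode the proteasome and its helpers in mouse gastrocnemius, a calf muscle of mostly fast fibres. They were chosen by symbol alone: every entry of the expression table with a symbol of the form Psma, Psmb, Psmc, Psmd, Psme, Psmf or Psmg followed by a number, which gave 47 of 16634 entries. Of these, 46 had at least 1 FPKM (fragments per transcript length and mapped total) in at least 4 libraries and were tested among 11975 genes. The remaining one, Psma8, the alpha subunit of the testis, averaged 0.0378 FPKM and was listed at 0 in 9 libraries. Psmb11, the beta subunit of the thymus, was not analysed here. The study measured RNA in 32 mice aged 10 weeks on a mixed genetic background, 4 for each of 2 genotypes at Zeitgeber times (ZT, hours after lights on) 0, 6, 12 and 18. Mutants carried Sf1-Cre and 2 floxed alleles of Sirt1 (Sf1-Cre; Sirt1loxP/loxP). The labels call the other mice Control, and the series description gives them as Sirt1loxP/loxP without Cre, so floxed alleles were shared by all mice, and Cre and the loss of SIRT1 cannot be told apart. SIRT1 is a deacetylase, and SF1 is a transcription factor of the ventromedial hypothalamus that is also made in the adrenal gland, the gonads and the pituitary. The deletion was therefore not directed to muscle, and where it took place was not measured here.

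The proteasome degrades proteins tagged with ubiquitin and is a main route of protein loss in muscle. Its core is a barrel of alpha and beta rings with the cutting sites on Psmb5, Psmb6 and Psmb7. A regulatory particle caps the barrel: a ring of ATPases (Psmc genes) unfolds the substrate, and a base and lid (Psmd genes) bind and remove ubiquitin. Interferon induces Psmb8, Psmb9 and Psmb10, which take the places of Psmb5, Psmb6 and Psmb7 in the immunoproteasome and shape peptides for antigen presentation. The transcription factor NRF1 (gene Nfe2l1) raises subunit genes together when the proteasome is impaired, through antioxidant response elements in their promoters.

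Promoter sequences were read for 39 of the 47 genes as the 250 bases before the start site (RefSeq, GRCm38.p6, the same assembly as mm10). The core letters TGACNNNGC of the antioxidant response element occurred on either strand in 5 of the 39 (12.8%), against 10.2% of 27025 promoters of all genes. The CCAAT box occurred in 13 (33.3%, against 34.3%). The E-box CACGTG, which clock proteins bind, occurred in 4 (10.3%, against 6.02%). The interferon response letters GAAANNGAA occurred in 3 (7.69%, against 7.15%). These were Psmb3, Psmd4 and Psmd9, and the windows of Psmb8, Psmb9 and Psmb10 held none. The windows of Psmb8 and Psmb9 lie inside the genes as GENCODE annotates them, with starts at chr17:34197721 (plus strand) and chr17:34187764 (minus strand). Sequence before those starts was not read, so an element there would be missed. The promoters of 2 constitutive cutting subunits and of the immune subunits that replace them are shown because their RNA ratios are compared further on. They lie at chr14:54617996-54618245 (minus strand), chr17:34197945-34198194 (plus strand), chr11:70525107-70525356 (plus strand) and chr17:34187331-34187580 (minus strand), and capitals mark TGACNNNGC in Psmb5 and Psmb6 and the CCAAT box, on the other strand, in Psmb9.
Psmb5: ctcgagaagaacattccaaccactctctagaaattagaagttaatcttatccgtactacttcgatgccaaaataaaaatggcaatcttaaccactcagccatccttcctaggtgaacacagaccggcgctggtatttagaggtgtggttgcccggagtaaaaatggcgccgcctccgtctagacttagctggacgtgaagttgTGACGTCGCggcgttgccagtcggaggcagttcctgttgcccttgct
Psmb8: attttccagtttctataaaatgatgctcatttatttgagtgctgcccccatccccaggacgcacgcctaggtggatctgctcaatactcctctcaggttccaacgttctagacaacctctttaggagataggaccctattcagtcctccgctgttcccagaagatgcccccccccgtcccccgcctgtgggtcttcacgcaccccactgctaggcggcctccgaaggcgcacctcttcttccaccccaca
Psmb6: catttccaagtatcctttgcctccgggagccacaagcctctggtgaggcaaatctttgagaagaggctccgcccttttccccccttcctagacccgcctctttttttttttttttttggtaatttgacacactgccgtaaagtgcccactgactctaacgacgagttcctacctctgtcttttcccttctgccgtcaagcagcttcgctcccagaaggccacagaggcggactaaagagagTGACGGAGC
Psmb9: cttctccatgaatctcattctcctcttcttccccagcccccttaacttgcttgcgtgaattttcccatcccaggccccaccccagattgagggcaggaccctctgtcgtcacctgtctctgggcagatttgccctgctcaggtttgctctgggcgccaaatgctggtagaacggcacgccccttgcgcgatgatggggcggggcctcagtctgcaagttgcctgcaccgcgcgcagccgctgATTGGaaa
The element core started 47 bases before the start site in Psmb5 and 9 bases before it in Psmb6, and the letters of neither motif occurred in the Psmb8 window.

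All 8 muscle markers were present in every library, with summed levels from 29195 to 67384 FPKM. Markers of other cells varied more between mice. The sum of 8 lymphocyte markers ran from 1.72 to 77.9 FPKM in controls and from 2.12 to 61.4 in mutants. The libraries also differed in how RNA level tracked the GC content of transcripts, measured as the slope of log2 deviation per 10 GC points over 11515 genes outside the family. The slope stood apart in 3 mutant libraries, at 0.252 (ZT0), 0.140 and 0.114 (both ZT12), and lay between -0.0922 and 0.0939 in the other 29. The same 3 had the lowest muscle marker sums, 30256, 37550 and 29195 FPKM. Depth in reads is unknown.

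Proteasome RNA was abundant in this muscle. Median levels of the rings and lid were above those of the immune subunits and assembly factors, although single genes overlapped (Psma5 averaged 10.8 FPKM and the assembly factor Psmg2 25.7). FPKM is a level per transcript length, so genes can be set side by side where entry and annotated gene match. Some entries depart from the gene. Those of Psma3, Psmc3, Psmd9 and Psma2 span 1.9, 0.439, 0.272 and 0.204 times its length, and that of Psmb7 overlaps the coding gene Nek6. The part of these departures in the levels was not tested. In the alpha ring, which forms the gate of the barrel, means over 32 libraries ran from 10.8 FPKM (Psma5) to 214 (Psma6), with a median of 89.9. The entry of Psma6 spans 6.19 times the annotated gene and takes in the coding genes Nfkbia, Ppp2r3c and 1110008L16Rik, so its value may hold other RNA. In the constitutive beta ring the range was 32.5 (Psmb3) to 220 (Psmb7). The ATPase ring lay between 48.0 (Psmc4) and 140 (Psmc3). The scaffold and ubiquitin receptor subunits of the base, Psmd1, Psmd2 and Psmd4, averaged 85.5, 90.0 and 127 FPKM. The lid ran from 26.5 (Psmd11) to 134 (Psmd8), and its deubiquitinase Psmd14 averaged 49.3.

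The helpers of the particle covered a wide range of levels. The chaperones of base assembly, Psmd10, Psmd9 and Psmd5, averaged 8.98, 10.2 and 12.5 FPKM, and those of core assembly ran from 6.44 (Psmg4) to 25.7 (Psmg2). Among the activators, Psme4 (PA200) averaged 95.6 FPKM, Psme1 38.6, the nuclear activator Psme3 27.3 and Psme2, the partner of Psme1, 4.40. The entry of Psme1 spans 1.98 times its annotated gene and overlaps Emc9, whose part in the value of Psme1 was not tested. The inhibitor Psmf1 averaged 6.14 FPKM. The immune subunits Psmb9, Psmb8 and Psmb10 averaged 5.96, 8.53 and 10.9 FPKM.

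**Figure D1:**
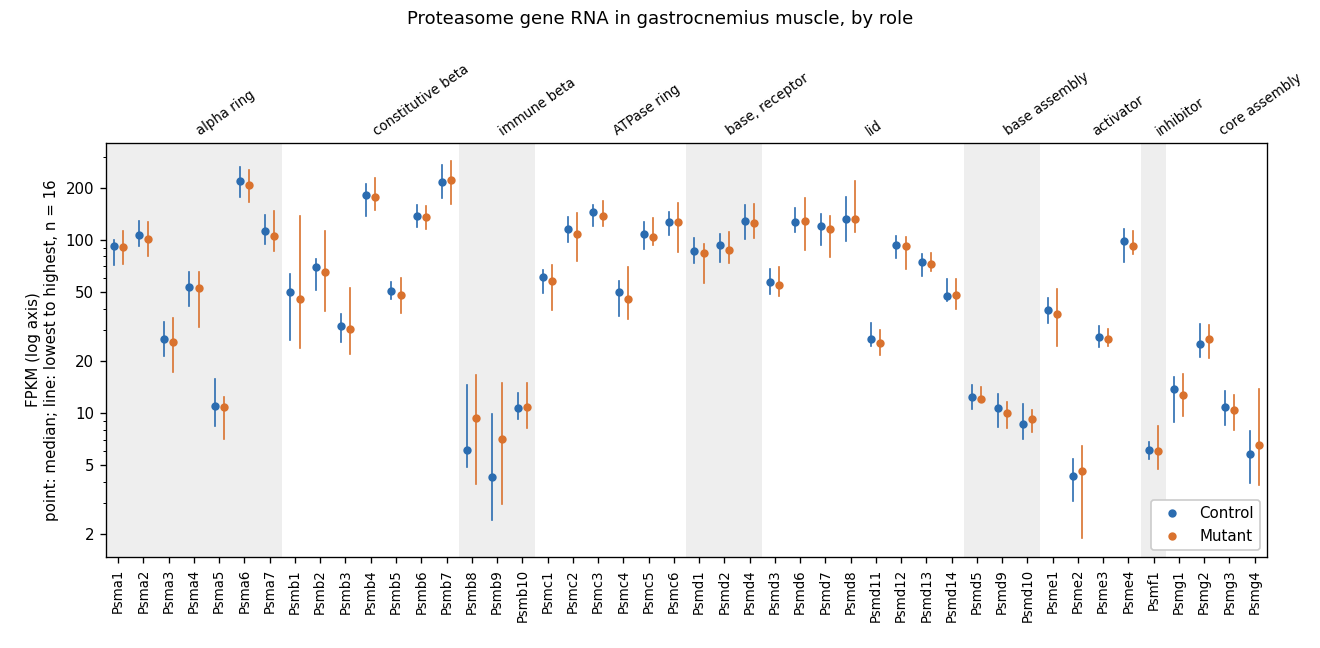
Level of the 46 tested genes in FPKM on a log axis, grouped by role, with the median (point) and the lowest to highest library (line) of 16 control and 16 mutant mice. The alpha ring, constitutive beta ring and ATPase ring have median levels of 89.9, 67.1 and 108 FPKM, and the averages of the immune subunits are at most 10.9 FPKM.

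Over all times, no proteasome gene passed the test for a difference between genotypes (smallest adjusted p = 0.756), and 0.0251% of all genes did. At an unadjusted p under 0.05 there were 3 of 46, near the 6.48% of all genes. Psmb9 and Psmb8 had the values 0.42 ± 0.17 and 0.33 ± 0.14, and the ATPase Psmc2 -0.12 ± 0.058 (mutant minus control on the log2(FPKM + 1) scale, ± SE). Differences were positive in 16 genes and negative in 30, while 51.3% of all genes were positive. The median was -0.035, against 0.0023 over all genes. The estimates were tight. The 95% interval lay within a 1.5-fold change either way in 44 of 46 genes (96.3% of all genes), the exceptions being Psmb8 and Psmb9.

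The cutting subunits show this size. Psmb5 had 45.5, 50.5 and 56.7 FPKM as lowest, median and highest control and 37.9, 47.8 and 59.8 in mutants. The ranges overlap almost whole, and the difference was -0.077 (95% interval -0.18 to 0.022). Psmb6 ran from 119 to 159 FPKM in controls and from 116 to 157 in mutants, with a difference of -0.051 ± 0.049. Psmb7 averaged 220 ± 26.6 FPKM in controls and 221 ± 34.4 in mutants (SD over 16 mice each), a difference of 0.0030 whose sign changed when some single libraries were left out. Psmb7 (chr2:38588046-38643906) is annotated 48.6 kb from Nr5a1, the gene of SF1 whose promoter drives the Cre. Whether this position bears on the Psmb7 values was not tested.

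Examples of the other roles follow. In the regulatory particle, Psmd1 averaged 88.0 ± 7.85 FPKM in controls and 83.0 ± 10.5 in mutants. Psmd2 averaged 91.4 ± 8.19 FPKM in controls and 88.5 ± 8.64 in mutants, Psmd4 128 ± 14.4 and 126 ± 15.1, and Psmd14 49.4 ± 4.66 and 49.2 ± 5.71. Psmd11, whose phosphorylation stimulates the particle, averaged 27.1 ± 2.17 and 25.8 ± 2.04 FPKM, a difference of -0.072 ± 0.040. The core subunit Psma4 averaged 54.3 ± 6.63 and 51.2 ± 9.21. Among activators, Psme4 averaged 97.6 ± 10.9 and 93.5 ± 6.58 FPKM, Psme1 39.3 ± 3.77 and 37.9 ± 6.94, and Psme2 4.31 ± 0.615 and 4.49 ± 1.25. The inhibitor Psmf1 averaged 6.04 ± 0.368 and 6.23 ± 0.835. The assembly factors Psmd5, Psmd9 and Psmg1 averaged 12.3 ± 1.08, 10.5 ± 1.17 and 13.3 ± 1.93 FPKM in controls and 12.7 ± 0.945, 9.97 ± 0.91 and 13.0 ± 2.27 in mutants, all as SD over 16 mice. None of these differences exceeded the spread between mice by the test.

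At single times no proteasome gene passed either, and ZT12, the start of the night, came nearest (smallest adjusted p = 0.102). The calls among all genes were 0.0167% at ZT0, ZT6 and ZT18 and 0.0251% at ZT12. At ZT12, 8 of 46 genes had an unadjusted p under 0.05, the same 17.4% as among all genes. The positive values belonged to the beta subunits Psmb1, Psmb2, Psmb3 and Psmb7, the ATPase Psmc4 and the chaperones Psmd10 and Psmg4, and the negative one to Psmc2 (-0.31 ± 0.12). Over the family at ZT12 the values were evenly divided, 23 positive and 23 negative, while 63.6% of all genes were positive. The median was 0.0061, against 0.064 over all genes.

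Psmb1, a beta subunit without a cutting site (chr17:15475721-15498276), had the largest of these values. At ZT12 the controls had 29.0, 31.6, 26.5 and 27.5 FPKM and the mutants 114, 109, 49.1 and 38.9. The groups do not overlap, and the mutants split into 2 libraries above 100 FPKM and 2 below 50. The share of all genes whose groups do not overlap was not counted, at this or any other time. The difference was 1.26 ± 0.33 (adjusted p = 0.102). The 2 high libraries are the ZT12 libraries whose GC slope stood apart. Without all 3 such libraries, which leaves 2 mutants at ZT12, the difference was 0.60 (adjusted p = 0.791). With the slope as a covariate it was 1.06 (adjusted p = 0.0239), where 0.668% of all genes were called. It also passed without mutant ZT0 library 2 (adjusted p = 0.0235; 2.19% of all genes called), mutant ZT0 library 3 (0.0367; 0.802%) or mutant ZT12 library 3 (0.0168; 3.74%), so the call rests on which libraries are in the fit.

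Psmc4, an ATPase that threads substrate into the core (chr7:28041702-28050092), followed the same libraries. At ZT12 it had 39.1, 42.2, 40.7 and 36.4 FPKM in controls and 65.9, 65.8, 51.8 and 46.1 in mutants. All mutants lay above all controls, with a difference of 0.51 ± 0.14 (adjusted p = 0.121). It was 0.30 without the 3 libraries, with 2 mutants left at ZT12 (adjusted p = 0.791), and 0.43 with the slope as a covariate (adjusted p = 0.0471). It also passed without mutant ZT0 library 2 (0.029) or mutant ZT12 library 3 (0.0288), the fits with 2.19 and 3.74% of all genes called. Psmb2 had 51.2 to 57.7 FPKM in ZT12 controls and 93.2, 91.8, 63.8 and 61.4 in mutants, a difference of 0.48 ± 0.18 that was 0.20 without the 3 libraries. Psmb7 had 173 to 198 FPKM in controls and 210 to 262 in mutants at ZT12, and its difference of 0.33 ± 0.11 (adjusted p = 0.18) was 0.32 without those libraries. Psmd10, the oncoprotein gankyrin, had 7.08 to 9.20 and 8.70 to 10.4 FPKM, overlapping ranges with a difference of 0.29 ± 0.11. The mutants of Psmd3 also lay above all its controls at ZT12.

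**Figure D2:**
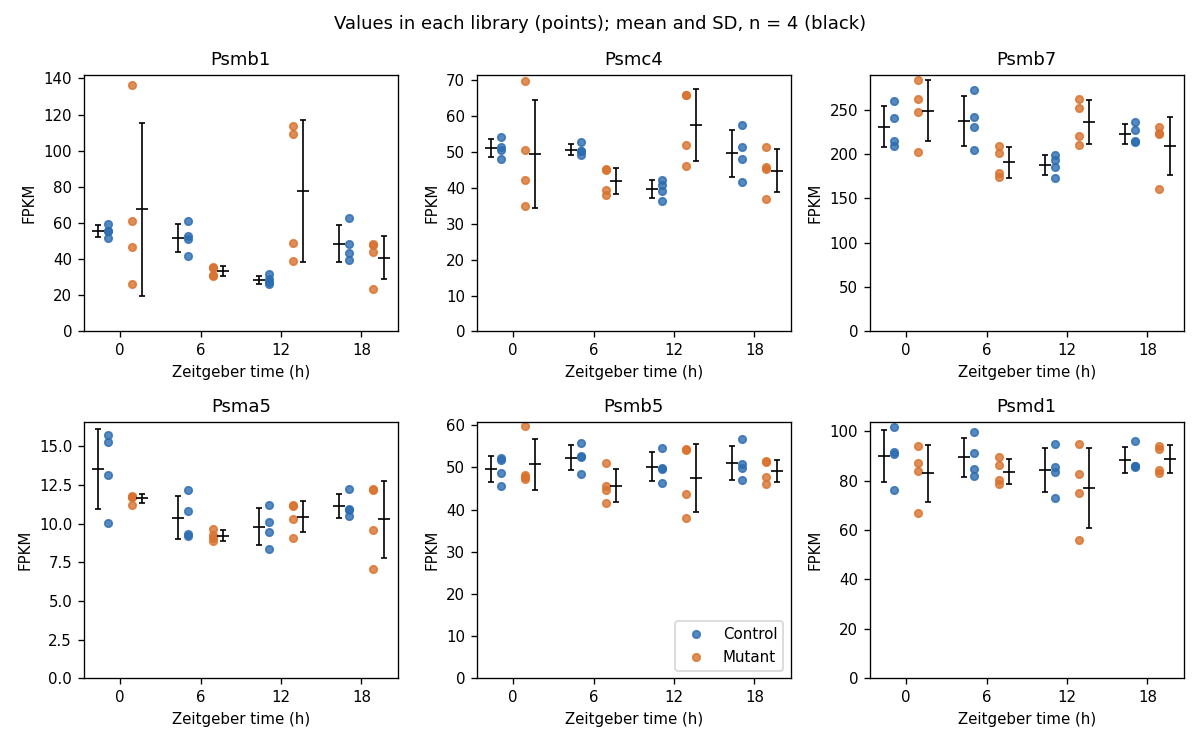
FPKM of 6 genes in every library by Zeitgeber time (points; blue control, orange mutant), with mean and SD of 4 mice in black. At ZT12 the control values of Psmb1, Psmc4 and Psmb7 lie below all mutant values, while Psmb5 and Psmd1 overlap at every time. The share of all genes separated in this way was not counted.

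At ZT6, mid-day, 39 of 46 differences were negative and 7 positive, while 42.5% of all genes were positive. The median was -0.12, against -0.031 over all genes, and no member passed (smallest adjusted p = 0.471). Members share libraries, so their signs are not independent. The unadjusted count was 6 (13% of the family, against 10.4% of all genes): Psme3, Psmb7, Psmc3, Psmb6 and Psmd3 negative and Psmb8 positive. Psme3 had 30.4, 31.6, 27.8 and 28.6 FPKM in controls and 24.4, 25.7, 26.4 and 26.2 in mutants. These groups do not overlap either, and the difference was -0.20 ± 0.063. The control mean of Psmb7 at ZT6 was 237 ± 28 FPKM and the mutant mean 191 ± 17.3, the reverse order of ZT12. Psmc3 had 147 ± 10.8 and 125 ± 4.28 FPKM (SD, n = 4 each). Psmb1 was likewise reversed, with 51.4, 60.9, 52.8 and 41.7 FPKM in controls and 30.7, 31.2, 35.8 and 35.3 in mutants at ZT6, and its groups do not overlap. The same held for Psmc4, with 49.1 to 52.9 and 38.0 to 45.2 FPKM. Neither passed, at -0.61 ± 0.33 and -0.27 ± 0.14. The groups of Psmd3, Psmc3, Psmb6, Psmd14 and Psmg3 did not overlap at ZT6 either, with the mutants lower in each. The share of all genes separated in this way was not counted.

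At ZT0 the assembly chaperone Psmg1 alone had an unadjusted p under 0.05 (8.46% of all genes did), with 8.90 to 11.7 FPKM in controls and 10.3 to 15.5 in mutants. At ZT18 there was none, against 2.88% of all genes. When the 4 genotype differences were tested against each other, no gene of the family and 0% of all genes passed. The unadjusted count was 6 (14.1% of all genes): Psmb1, Psmc4, Psmb7, Psme3, Psmb2 and Psmg1, with adjusted p from 0.217 to 0.345.

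**Figure D3:**
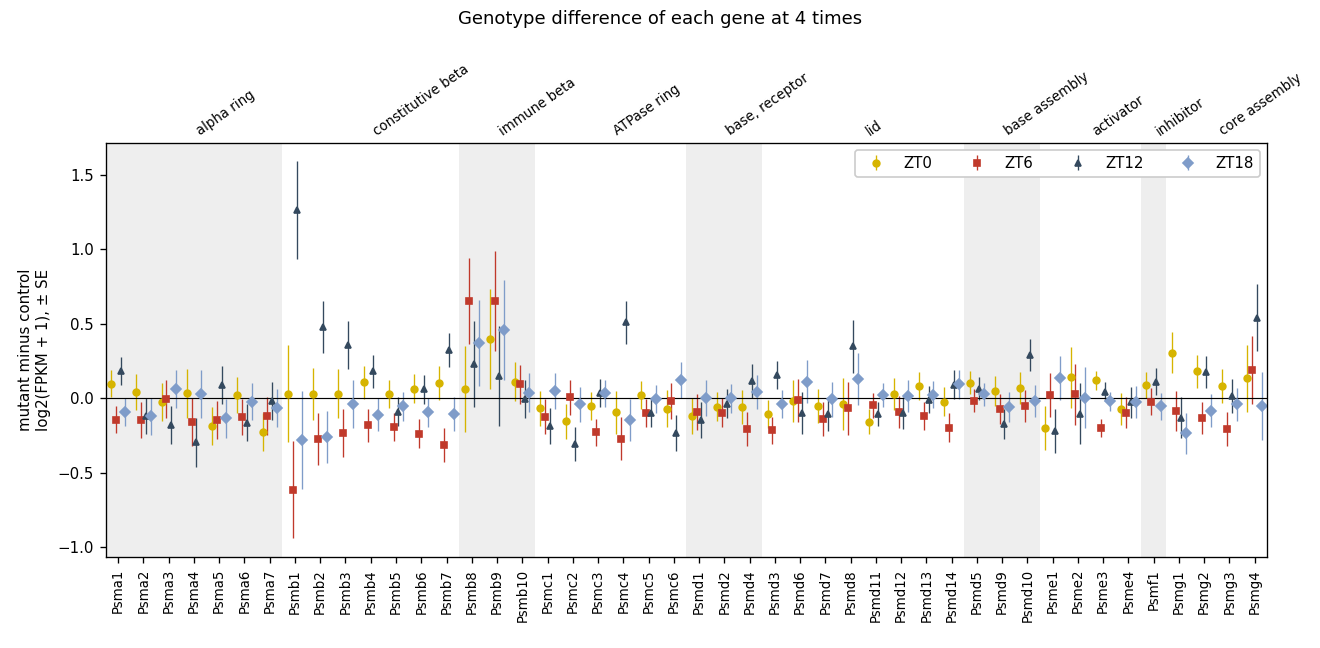
Mutant minus control on the log2(FPKM + 1) scale (± SE) for each of 46 genes at ZT0, ZT6, ZT12 and ZT18, grouped by role. Most values lie within 0.3 of 0, and Psmb1 at ZT12 stands highest, at 1.26.

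The genes that moved with the GC slope were in every layer of the particle. With group means in the fit, 7 of 46 genes were higher in libraries of higher slope (15.2% of the family, against 21% of all genes), and 11 were lower (23.9%, against 10.7%). The 7 were Psmb1, Psmd3, Psmc4, Psmb2, Psmg4, Psmf1 and Psmb3. The 11 included the ATPases Psmc6, Psmc2 and Psmc1, the alpha subunits Psma4, Psma6 and Psma3, and Psme2. Psmc6, whose transcript has 37.0% GC, had 125, 137, 94.2 and 132 FPKM in the ZT0 mutants and 98.5, 85.0, 135 and 118 in those of ZT12, lowest in the same 3 libraries in which Psmb1 (46.1% GC) was highest. Over 32 libraries, log2(FPKM + 1) of Psmb1 followed the slope with Pearson r = 0.688 (permutation p = 5e-05, adjusted over 28 coefficients 0.000467) and Spearman rho = 0.414 (p = 0.0194, adjusted 0.0418). Without the 2 libraries farthest from the median slope r was 0.434. Over the 29 libraries other than the 3 apart it was 0.233 (permutation p = 0.225, adjusted 0.331). For Psmc6, r was -0.758 (permutation p = 2e-05, adjusted 0.00042), rho -0.690 (p = 3e-05, adjusted 0.00042) and r without the 2 farthest -0.674. Over the 29 libraries r was -0.535 (permutation p = 0.00257, adjusted 0.00899). These coefficients and permutations ignored the groups, so differences between groups enter them. With group means taken out, Psmb1 had r = 0.791 and rho = 0.594, and Psmc6 r = -0.792 and rho = -0.770. Without mutant ZT0 libraries 2 and 3, the farthest in slope within groups, these r were 0.631 and -0.748. The part of the slope in the ZT12 values of the family was not tested beyond the fits given.

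**Figure D4:**
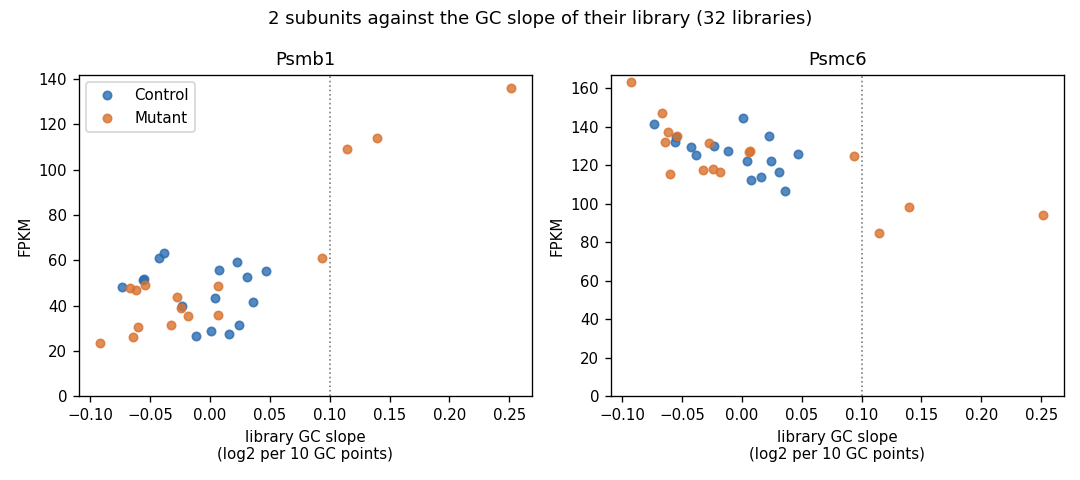
FPKM of Psmb1 and Psmc6 against the GC slope of the library (log2 per 10 GC points) in 32 libraries, controls blue and mutants orange; the dotted line marks a slope of 0.1. The 3 mutant libraries right of the line have the 3 highest Psmb1 values and the 3 lowest Psmc6 values.

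In the fit of all 32 libraries, no proteasome gene passed a test of daily variation. In this muscle 11.6% of all genes varied with time and 11.4% had a 24 h rhythm over both genotypes. The unadjusted counts were 2 of 46 for time (26% of all genes) and 3 of 46 for the rhythm (24% of all genes). The median amplitude from mean to peak was 0.054 on the log2(FPKM + 1) scale, against 0.073 over all genes. In controls, where 5.55% of all genes were called, 3 members had an unadjusted p under 0.05 (19.4% of all genes), and the median amplitude was 0.066, against 0.098. In mutants, where 3.92% were called, there was 1 (14.4% of all genes), Psmc3 with an amplitude of 0.12 (adjusted p = 0.345), and the median amplitude was 0.080, against 0.091. The rhythm differed between genotypes in no member and in 0% of all genes, with unadjusted p under 0.05 for Psmc4 and Psmb1 (5.34% of all genes).

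Psma5, an alpha ring subunit (chr3:108256926-108279952), came nearest to a daily change. In controls it had 13.2, 15.3, 10.0 and 15.8 FPKM at ZT0 and 11.2, 10.1, 9.48 and 8.38 at ZT12. In mutants it had 11.7, 11.8, 11.8 and 11.2 at ZT0 and 11.2, 10.3, 11.1 and 9.08 at ZT12. Most values at ZT0 were the higher ones in both genotypes, and the control groups overlap through library 2 of ZT0. The fitted peak was at ZT 22.6 with an amplitude of 0.15 (adjusted p = 0.0694), the time test gave adjusted p = 0.0534, and ZT12 minus ZT0 was -0.28 ± 0.090 (adjusted p = 0.0628). Without control ZT0 library 2 these adjusted p values were 0.0139, 0.00965 and 0.0138, and without mutant ZT18 library 0 they were 0.0122, 0.0150 and 0.0245. The time test also passed, with adjusted p from 0.0399 to 0.0444, without control ZT6 library 1, control ZT12 library 0, mutant ZT18 library 1 or mutant ZT18 library 3. In the fits of time without 1 of these 6 libraries, 10.1 to 11.1% of all genes were called. The rhythm of Psma5 in controls (amplitude 0.22, adjusted p = 0.098) likewise passed without control ZT0 library 2 (0.0214; 4.93% of all genes called) or mutant ZT18 library 0 (0.0397; 6.12%).

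Psmb1 had 51.7, 59.3, 55.7 and 55.4 FPKM in controls at ZT0 and 29.0, 31.6, 26.5 and 27.5 at ZT12, with ZT6 and ZT18 between 39.8 and 63.0. The ZT12 controls were below every other control, the fitted peak was at ZT 0.389 and the amplitude 0.47 (adjusted p = 0.19). The spread in that fit is shared with the mutants, among which Psmb1 ran from 23.6 to 136 FPKM. With the GC slope as a covariate the amplitude was 0.47 (adjusted p = 0.0122; 9.07% of all genes called), and without the 3 libraries it was 0.47 (adjusted p = 0.0120; 9.77% called). With controls alone in the fit it passed as well (adjusted p = 0.00157), together with Psmb2 (0.00435) and Psmc4 (0.0287), and 10.6% of all genes were called.

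Between ZT0 and ZT12 over both genotypes, 34 of 46 genes were lower at ZT12 and 12 higher, while 45.3% of all genes were higher. The median was -0.048, against -0.014 over all genes, and no member passed, while 5.71% of all genes did. Psma5, Psma3 and Psmb7 had an unadjusted p under 0.05 (17.7% of all genes). Between ZT6 and ZT18, 34 were higher at ZT18 (49.8% of all genes were), with a median of 0.042 against -0.0007. None passed (7.23% of all genes did), and the unadjusted p was under 0.05 for Psmc2, at 0.17 ± 0.082, and Psmd5, at -0.13 ± 0.054 (18.5% of all genes). The 12 h component, ZT0 and ZT12 against ZT6 and ZT18, was called in no member and 0.0668% of all genes, with Psmb3 (0.23 ± 0.081) the member under an unadjusted p of 0.05 (14.1% of all genes). The index sequences of the libraries were split by the same pairs of times. The labels do not say which libraries shared a sequencing pool, and the part of a pool in this component was not tested.

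Of the immune subunits, Psmb8 and Psmb9 had wide spreads between mice and the 2 smallest unadjusted p-values for genotype over all times. Psmb8 (chr17:34198195-34201454) had a lowest, median and highest level of 4.84, 6.05 and 14.4 FPKM in controls and 3.89, 9.35 and 16.6 in mutants. Psmb9, its neighbour (chr17:34182099-34187330), had 2.41, 4.23 and 9.80 FPKM in controls and 2.96, 7.08 and 14.8 in mutants. Both ranges overlap widely, and neither gene passed the test over all genes. Psmb10 (chr8:105935728-105938392) had 9.18, 10.6 and 13.0 FPKM in controls and 8.12, 10.8 and 14.8 in mutants, a difference of 0.059 ± 0.065. Psmb8 and Psmb9 tracked each other within groups (r = 0.904 over 32 libraries, as a description), and Psmb10 did so with Psmb9 (r = 0.817).

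Set against the constitutive subunits that they replace, 2 of the 3 had a higher mean ratio in mutants. The ratios were chosen with earlier results of these data known, and the permutation took no account of lymphocyte markers. The ratio of Psmb8 to Psmb5 had a median of 11.7% in controls (9.46 to 31.7%) and 18.1% in mutants (8.43 to 34.7%), a difference of mean log2 ratios of 0.45 (permutation of genotype within time, 2-sided p = 0.0276, adjusted over the 3 ratios 0.0414). The ratio of Psmb9 to Psmb6 had medians of 3.12% (1.57 to 7.66%) and 4.87% (2.33 to 10.7%), a difference of 0.55 (permutation p = 0.0186, adjusted 0.0414). The ratio of Psmb10 to Psmb7 had medians of 4.62 and 5.06%, a difference of 0.061 (permutation p = 0.5, adjusted 0.5). Both calls were lost with medians in place of means (adjusted p = 0.0796) and in 18 of the 32 permutation tests that left out 1 library. Over all 32 of these tests the adjusted p ran from 0.0127 to 0.0786.

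Lymphocyte markers moved with these 2 subunits. Their sum fell into a lower set of 17 libraries (at most 4.94 FPKM; 11 controls and 6 mutants) and a higher set of 15 (at least 20.7 FPKM; 5 controls and 10 mutants). The medians were 3.63 FPKM in controls and 30.8 in mutants, and those of 6 macrophage markers 115 (57.6 to 284) and 141 (61.6 to 240.3) FPKM. The sum of 5 adipocyte markers had medians of 826 FPKM in controls (482 to 1480.0) and 1015 in mutants (431 to 2506), and the part of either list in the values of the immune subunits was not tested. Markers listed at 0 in some control libraries included Cd3g, Cd79a, Ms4a1 and Cd79b, and Cd3g and Cd79a were listed at 0 in some mutant ones. In the lower set the median of Psmb8 was 5.53 FPKM in controls and 6.98 in mutants, and in the higher set 10.9 and 10.7. For Psmb9 these medians were 3.79 and 4.21 FPKM in the lower set and 6.74 and 7.54 in the higher. With the mean log2 level of the markers as a covariate, the genotype difference was 0.095 for Psmb8 and 0.16 for Psmb9 (adjusted p = 0.997 each).

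Within the higher set, Psmb8 followed the marker sum with r = 0.665 (permutation p = 0.00705, adjusted 0.0179) and rho = 0.679 (p = 0.0068, adjusted 0.0179), and without the 2 farthest libraries r was 0.496. Psmb9 did so with r = 0.684 (permutation p = 0.00479, adjusted 0.0149) and rho = 0.661 (p = 0.00892, adjusted 0.0208), and r = 0.444 without the 2 farthest. Psmb10 had r = 0.172 there (permutation p = 0.541, adjusted 0.605). In the lower set, r was 0.487 for Psmb8 (permutation p = 0.0479, adjusted 0.0788) and 0.247 for Psmb9 (permutation p = 0.34, adjusted 0.432). In whole muscle, more immune cells and more RNA per cell cannot be told apart.

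**Figure D5:**
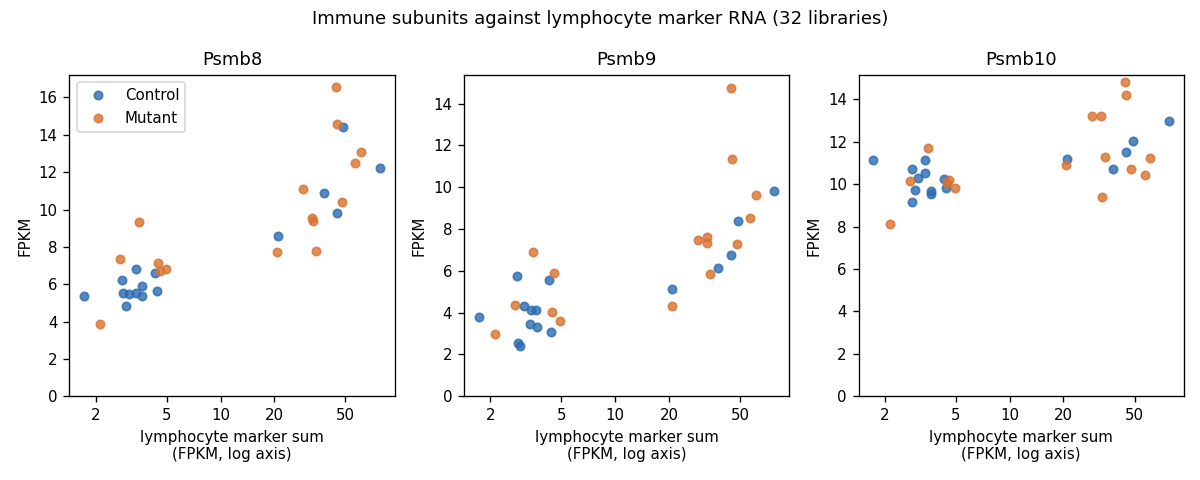
FPKM of Psmb8, Psmb9 and Psmb10 against the summed FPKM of 8 lymphocyte markers (log axis) in 32 libraries, controls blue and mutants orange. Psmb8 and Psmb9 are higher in the 15 libraries with sums of 20.7 FPKM and above, of which 10 are mutants, and Psmb10 differs less between the sets.

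Partners of the immunoproteasome in antigen presentation gave values of the same sign. All 9 genes of this list were higher in mutants over all times (median 0.19), none passed, and 5 had an unadjusted p under 0.05. Over all genes, 51.3% of the differences were positive and 6.48% had such a p. The 9 genes share libraries, so their signs and p-values are not independent. Of the 15 libraries with high lymphocyte marker sums, 10 were mutants, and the part of lymphocyte RNA in these values was not tested. Tap1, a chain of the peptide transporter and a neighbour of Psmb9, had a value of 0.34 ± 0.16, and the class I heavy chain H2-K1 one of 0.34 ± 0.16 (adjusted p = 0.756 each).

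The spread of the family within groups was near that of all genes. The SD that remained after group means was 0.164 at the median gene on the log2(FPKM + 1) scale, against 0.176 over all genes. It was smallest for Psme3 (0.075) and largest for Psmb9 (0.503), Psmb1 (0.492), Psmb8 (0.430) and Psmg4 (0.336). Within groups the median r over 32 libraries was 0.169 for pairs of members and 26% of pairs had r above 0.5, against 0.024 and 6.78% for pairs of all genes. These pairs share libraries, depth and base composition, and the values are a description. Psmc3 had the highest median r with the other members (0.485), followed by Psmb5 (0.444), and Psmb8 the lowest (-0.254).

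Among 25 tested genes that regulate, assemble or feed the proteasome, none passed for genotype at any time or over all times. Nfe2l1, the gene of NRF1, averaged 171 ± 18.8 FPKM in controls and 169 ± 20.5 in mutants (SD over 16 mice each). Usp14, a deubiquitinase bound to the base, and Zfand5, an activator of the particle, passed for time (adjusted p = 0.0324 and 0.0383), as did 11.6% of all genes. Usp14, Zfand5 and Nfe2l2, which encodes the stress factor NRF2, were higher at ZT18 than at ZT6, by 0.23 ± 0.059 (adjusted p = 0.0126), 0.27 ± 0.080 (adjusted p = 0.0318) and 0.33 ± 0.090 (adjusted p = 0.0224).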

How the data were processed

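RNA of 32 gastrocnemius samples was sequenced from stranded mRNA libraries in 4 pools of 8 samples (read length 100 cycles), per the labels' protocols. The authors deposited FPKM values, 1 per gene and library, on the mm10 build per the submitters' processing notes. The aligner, quantifier and annotation are not given in the sources used here. Columns were matched to the 8 groups by genotype and time. Library numbers 0 to 3 identify no mouse, so no pairing was made. Of low values in 878 genes, 45.4% lay within 0.1 of a whole step (20% with no steps), so reads were not recovered and no count model was used. Where labels do not tell separate litters or days, p-values measure the spread between mice.

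Differences were computed with limma 3.58.1 in R 4.3.3 on log2(FPKM + 1), which understates changes of low genes, with 1 mean per group over all libraries (24 residual and 3.37 prior degrees of freedom). Genes with at least 1 FPKM in at least 4 libraries entered, 2-sided p-values were adjusted by Benjamini-Hochberg over 11975 genes, and calls were made at an adjusted p under 0.05. Of 14 comparisons, 5 concern genotype alone, and the others concern time, the 24 h rhythm (cosine and sine contrasts, in which a peak time is read from 4 times) and its interplay with genotype. Ratios were tested by 100000 permutations of genotype within time, and relations between a gene and a library measure (14 relations) by 100000 permutations. The limma test was tested on simulated data. GC content came from GENCODE M21 transcripts. Deposited start coordinates lay 1 base before GENCODE starts in 4832 of 15741 entries (equal in 550), so they were read as counted from 0 and are given here from 1.

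Members, lists, ratios and tests were chosen with earlier results of these data known. The genes given in full are 22 fixed examples spread over the roles, the gene with the smallest p in each comparison and those a library decides. Others outside this rule (Psmb2, Psmc6, Psma3, Psma6, Psmg4, Tap1, H2-K1) were chosen after their values were seen. The fits with the GC slope, and those without the 3 libraries, were added after the data were seen. 1 gene of the related list is not reported here.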

Additional observations from a re-analysis of the deposited data

Results flagged for a closer look

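In 26 proteasome genes, the 4 libraries of each group were searched for 1 value far from the other 3, by Dixon's gap test at the 95% level. Of 208 groups, 8 held such a value, and chance gives about 1 in 20. Psma5 had 11.2 FPKM in mutant ZT0 library 3 against 11.7 to 11.8 in the other mice of its group. Psmb5 had 59.8 FPKM in mutant ZT0 library 0 against 47.2 to 48.1. Psmb7 had 161 FPKM in mutant ZT18 library 0 against 222 to 231. Psmc3 had 131 FPKM in control ZT6 library 3 against 151 to 154. Psmd1 had 96.1 FPKM in control ZT18 library 2 against 85.5 to 85.8. Psmd11 had 26.7 FPKM in mutant ZT0 library 3 against 25.2 to 25.4. Psmd9 had 9.24 FPKM in mutant ZT6 library 0 against 10.4 to 10.6. Psme1 had 28.9 FPKM in mutant ZT12 library 1, one of the 3 libraries with a GC slope apart, against 37.7 to 39.4.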

How the results depend on the processing

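The count of called proteasome genes was 0 in each of the 14 comparisons as reported. With array weights it was 4 for the rhythm in controls (Psma5, Psmb1, Psmb2, Psmb7; 18.6% of all genes called), 2 for genotype at ZT6 (Psmb7, Psme3; 1.94%) and 1 each for genotype by time (Psmb1; 0.351%), time (16.7%) and the 24 h rhythm over both genotypes (17.8%), the last 2 being Psma5. Scaling to the same upper quartile gave 1 for time (Psma5, adjusted p = 0.0499; 11.9% of all genes). With lymphocyte markers as a covariate it was 1 for time (12% of all genes), 1 for the 24 h rhythm over both genotypes (11.9%) and 1 for ZT12 minus ZT0 (5.79%), each time Psmb8 (for the last, a value of -0.30, adjusted p = 0.0331). With the compared groups alone in the fit it was 3 for the rhythm in controls (Psmb1, Psmb2, Psmc4; 10.6% of all genes). With the GC slope as a covariate it was 2 for genotype at ZT12 (Psmb1, Psmc4; 0.668% of all genes) and 2 for the rhythm in controls (Psmb1, Psmb2; 9.07%), and without the 3 libraries apart it was 1 for the latter (Psmb1; 9.77%). The cause of these changes was not tested.

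Leaving out 1 library at a time gave 0 to 2 called genes for genotype at ZT12 and 0 to 1 for time, for the 24 h rhythm over both genotypes (Psma3 in place of Psma5 without mutant ZT12 library 2), for the rhythm in controls and for ZT12 minus ZT0, and 0 in the other comparisons. The ratio of Psmb8 to Psmb5 then differed by 0.39 to 0.53 and that of Psmb9 to Psmb6 by 0.47 to 0.63, and with medians they differed by 0.62 and 0.64, with adjusted p = 0.0796 for both. The sign of the genotype difference of Psmb7 over all times, near 0, changed with the GC slope as a covariate (-0.00386), without the 3 libraries (-0.014) and among single omissions (-0.014 to 0.033), and so did ZT12 minus ZT0 of Psmb8 among single omissions (-0.15 to 0.072). No paired analysis was possible because library numbers do not identify mice. Depth in reads is unknown, so no counting error could be given. With 4 mice a group, 37 to 42 of 46 genes had 95% intervals within 1.5-fold at a single time.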
